A study of Mus musculus with 12 samples.

Results

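Macrophages sorted from the mammary ducts of lactating mice were compared with those of virgin mice by RNA sequencing. The comparison takes the 3 libraries labelled Lactating and the 3 labelled Virgin, 6 of the 12 libraries of the series, chosen by their stage labels and by no measured value, and covers all genes of the count table. Both groups are female C57BL/6 mice, and the cells were freshly sorted ductal macrophages of the mammary gland, with cDNA made by SMART-Seq v4, a full-length method for small samples, from 2000 cells a library. The animals carry no stated transgene or treatment, and the groups differ in reproductive stage. The day of lactation, the age of the mice, the sort gate and whether animals were pooled were not given in the sources used here. The libraries are described as biological replicates. The p-values set differences against the spread between replicates of a stage, estimated over all 12 libraries of the series.

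Ductal macrophages lie within the epithelium of the mammary duct, between its luminal and basal layers, where they touch epithelial cells with long processes and survey the duct. They carry MHC class II and CD11c, take up debris, and clear dying milk-producing cells when the gland regresses. In lactation the epithelium around them makes large amounts of milk protein and fat. Macrophages that take up lipid or meet inflammatory signals switch gene programs through a few well known factors. SREBP2 turns on cholesterol synthesis when membrane sterol is low, NF-kB turns on chemokines and cytokines, and interferon turns on antiviral genes.

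The promoters of 5 called genes are shown first, because they belong to the sterol, chemokine and interferon groups described below. Each is the 250 bases before the RefSeq start of the gene in GRCm38.p6, read 5′ to 3′ in the direction of the gene. The base next to the start is the last one, and no motif was searched.
Hmgcs1, chr13:119690101-119690350, plus strand: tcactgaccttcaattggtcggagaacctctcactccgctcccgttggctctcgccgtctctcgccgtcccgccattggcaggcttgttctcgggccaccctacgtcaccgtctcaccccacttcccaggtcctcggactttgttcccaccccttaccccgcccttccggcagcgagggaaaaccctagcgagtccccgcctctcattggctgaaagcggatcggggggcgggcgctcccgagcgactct
Cxcl3, chr5:90785851-90786100, plus strand: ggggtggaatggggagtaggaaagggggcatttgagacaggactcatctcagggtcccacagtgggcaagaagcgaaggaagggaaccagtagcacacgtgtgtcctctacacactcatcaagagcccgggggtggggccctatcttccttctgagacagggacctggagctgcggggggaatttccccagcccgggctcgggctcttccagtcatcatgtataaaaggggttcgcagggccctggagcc
Cxcl1, chr5:90890995-90891244, plus strand: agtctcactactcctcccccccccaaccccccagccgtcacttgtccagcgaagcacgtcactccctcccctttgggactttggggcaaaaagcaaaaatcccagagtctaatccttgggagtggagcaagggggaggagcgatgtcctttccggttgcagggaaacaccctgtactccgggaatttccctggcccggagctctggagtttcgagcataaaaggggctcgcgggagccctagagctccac
Ccl9, chr11:83578637-83578886, minus strand: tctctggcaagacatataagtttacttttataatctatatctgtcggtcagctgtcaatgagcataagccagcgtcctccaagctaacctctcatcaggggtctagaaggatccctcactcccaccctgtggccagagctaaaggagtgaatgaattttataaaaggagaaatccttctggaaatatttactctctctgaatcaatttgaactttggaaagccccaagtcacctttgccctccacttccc
Rsad2, chr12:26456453-26456702, minus strand: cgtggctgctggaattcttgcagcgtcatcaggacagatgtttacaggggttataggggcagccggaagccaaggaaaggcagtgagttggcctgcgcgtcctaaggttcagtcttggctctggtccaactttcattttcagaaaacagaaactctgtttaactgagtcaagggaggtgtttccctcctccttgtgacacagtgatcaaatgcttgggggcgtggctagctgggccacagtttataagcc

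Library totals were 7304269, 6926273 and 10445732 gene counts in lactating replicates 1, 2 and 3, and 8704918, 12198862 and 12709036 in the virgin replicates. Levels below are given in that replicate order, as CPM, counts scaled to a common size, from the TMM-scaled library size. Of the 6 libraries, Lactating replicate 3 was the one that stood apart. Genes of milk and the secretory epithelium took 0.19, 0.182 and 7.55% of counts in lactating libraries, against 0.00046, 0.0024 and 0.0208% in virgin libraries, and 20 macrophage identity genes took 14.1, 13.1 and 5.13%, against 10.2, 9.77 and 10.5%. Malat1, a nuclear long noncoding RNA, stood at 9541, 13175 and 40881 CPM of the unscaled total in lactating libraries, against 11895, 12198 and 8392 CPM in virgin libraries. Genes with at least 1 count numbered 11462, 11412 and 10178, against 12421, 11295 and 13207. Markers of fibroblasts, endothelium, T and NK cells, B cells, neutrophils, dendritic cells and monocytes each took at most 0.0640% of the counts of any of the 6 libraries. Basal epithelial markers took 0.00853, 0.0185 and 0.0849% in lactating libraries, against 0.011, 0.0102 and 0.0265% in virgin libraries. Endothelial markers took 0.000164, 0.00247 and 0.0488% in lactating libraries, against 0.0063, 0.00189 and 0.0139% in virgin libraries. Adipocyte markers took 0.00104, 0.000765 and 0.0241%, against 2.3e-05, 0.000303 and 0.000236%. In Lactating replicate 3 all 2518 counts of that adipocyte list were of Cidea. Macrophage markers were abundant in all 6 libraries, at a lower share in Lactating replicate 3. In such bulk samples fewer cells of a type and less RNA per cell cannot be told apart. Many results that this library decides are given below with and without it, though not for every list.

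**Figure D1:**
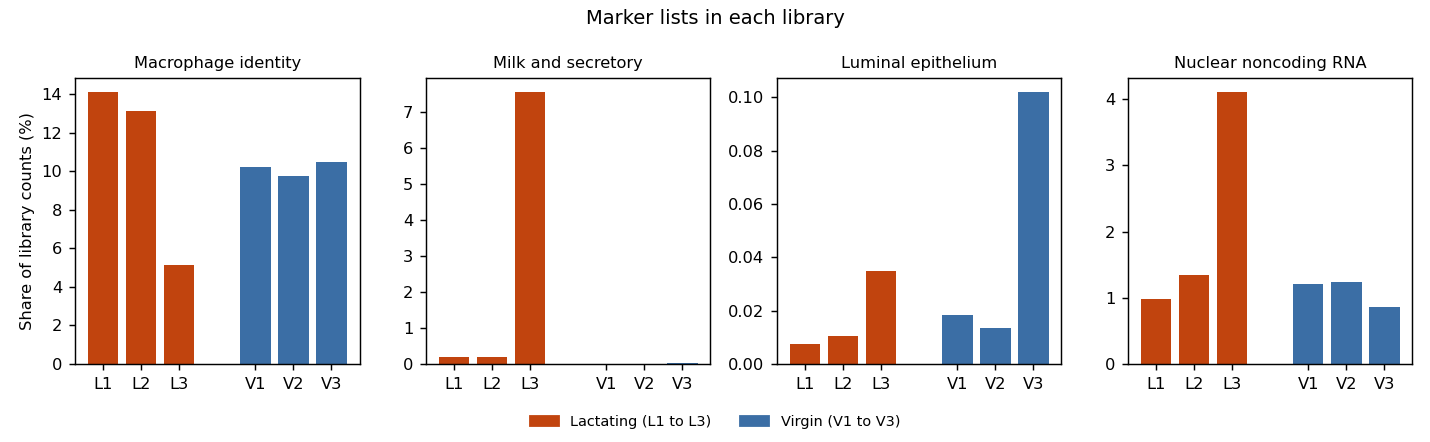
Bars give the percent of a library's gene counts taken by 4 marker lists (macrophage identity, milk and secretory epithelium, luminal epithelium, nuclear noncoding RNA), each on its own vertical axis from 0, for lactating libraries (L1 to L3, left) and virgin libraries (V1 to V3, right). L3 has the highest milk share (7.55%) and the lowest macrophage identity share (5.13%) of the 6.

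Of 12672 genes tested, 246 differed between lactating and virgin macrophages at an adjusted p under 0.05, which is 1.94% of the genes. Of these, 132 (1.04%) rose in lactation and 114 (0.900%) fell. The test was edgeR's quasi-likelihood test, fitted to all 12 libraries with a mean for each of the 4 stages, so that the other stages help to estimate the spread. "Rose" and "fell" are used below only for genes past this threshold. The median log2 fold change of all genes tested was -0.06. Without Lactating replicate 3, 416 of 13426 genes differed (3.10%), with 236 (1.76%) higher and 180 (1.34%) lower. Each count of list members below is to be set beside the shares of all genes in the same fit. These are 1.04% higher and 0.900% lower with all libraries, and 1.76% and 1.34% without Lactating replicate 3. The 2 sets shared 204 genes, 82.9% of the 246 and 49% of the 416, and the median over all genes was then -0.15. The 3 libraries of a stage lay wholly above or below those of the other stage for 2197 genes (17.3%), among them all 246. Leaving out a virgin library left 111, 131 and 121 calls, without Virgin replicates 1, 2 and 3. A fit to the 6 lactating and virgin libraries alone called 0 genes by the same edgeR test, with 964 at an unadjusted p under 0.05. With the other stages in the fit, 2129 genes had such a p, and DESeq2 called 1168 there. Without the other stages and without Lactating replicate 3, a fit added after seeing the data, edgeR called 63 genes, 40 of them among the 246.

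**Figure D2:**
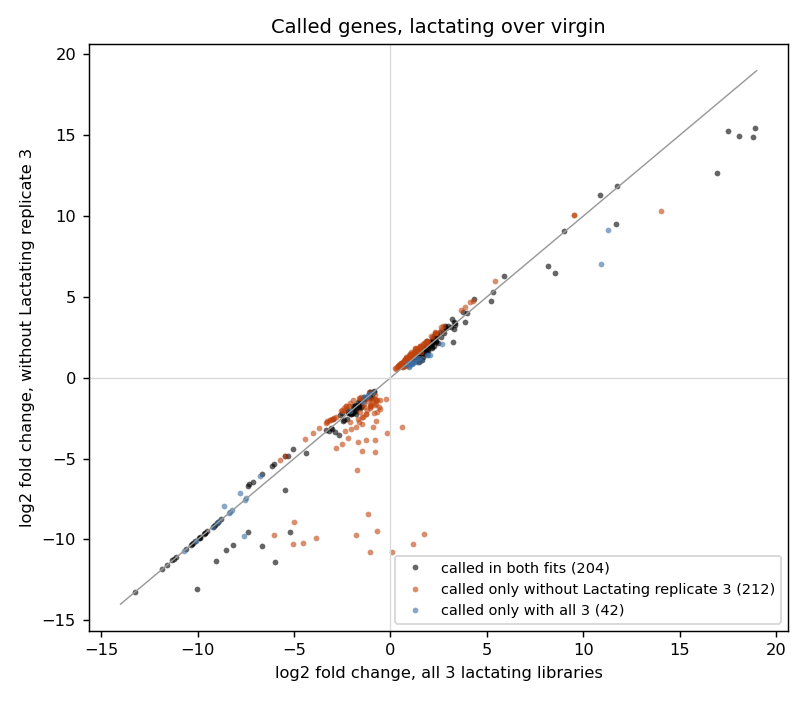
Log2 fold change of lactating over virgin libraries for each gene called in either fit, with all 3 lactating libraries on the horizontal axis and without Lactating replicate 3 on the vertical axis, and a diagonal where both are equal. Colours mark genes called in both fits (204), only without Lactating replicate 3 (212) or only with all 3 (42); the milk genes at the top right lie below the diagonal, lower without that library.

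Of the 20 genes of cholesterol synthesis, all of them tested, 5 rose and 0 fell in lactating macrophages, beside 1.04% of all genes that rose, with a median log2 fold change of 2.49, against -0.06 over all genes. Hmgcs1, which makes HMG-CoA at the head of the pathway and whose promoter is printed above (chr13:119690351-119708260), had 131, 108 and 105 CPM in lactating libraries, against 8.61, 11.5 and 19.1 CPM in the virgin libraries (log2 fold change 3.13 ± 0.38 (SE), adjusted p = 0.0041). Every lactating library lay well above every virgin one. As a description, the pregnant libraries had 110, 97.5 and 70.6 CPM of Hmgcs1 and the post-weaning libraries 71.3, 36.7 and 39.8 CPM. Fdps, which makes farnesyl diphosphate, had 69.5, 53.4 and 47.8 CPM in lactating libraries, against 4.59, 3.49 and 8.77 CPM in the virgin libraries (log2 fold change 3.34 ± 0.47 (SE), adjusted p = 0.00505). Pmvk, phosphomevalonate kinase, had 85.2, 123 and 203 CPM in lactating libraries, against 44.6, 43.7 and 37.4 CPM in the virgin libraries (log2 fold change 1.71 ± 0.32 (SE), adjusted p = 0.0214). The later enzymes Cyp51 and Msmo1, which remove methyl groups from lanosterol and its products, were high in the first 2 lactating libraries and lower in the third. Cyp51 had 421, 444 and 28.1 CPM in lactating libraries, against 18, 15.9 and 9.72 CPM in the virgin libraries (log2 fold change 4.35 ± 0.78 (SE), adjusted p = 0.0185, and 3.29e-05 without Lactating replicate 3). Msmo1 had 485, 381 and 81.8 CPM in lactating libraries, against 24.8, 54.7 and 22.8 CPM in the virgin libraries (log2 fold change 3.21 ± 0.59 (SE), adjusted p = 0.0192, and 0.000769 without it). The summed pathway took 0.167, 0.152 and 0.0751% of counts in lactating libraries, against 0.0312, 0.0318 and 0.0308% in virgin libraries.

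In the fit without Lactating replicate 3, 10 of the 20 genes rose and 0 fell, beside 1.76% of all genes that rose. The further ones included Sqle, Sc5d, Dhcr7 and Fdft1. Sqle, squalene epoxidase, had 101, 158 and 0 CPM in lactating libraries, against 4.48, 0.317 and 15.6 CPM in the virgin libraries (adjusted p = 0.286, and 0.0397 without that library). With all libraries its log2 fold change was 3.66 in edgeR and -0.39 in limma-voom, so its direction depended on the tool. The third lactating library lay below every virgin library, so the groups overlapped. Sc5d, a late desaturase, had 383, 294 and 61 CPM in lactating libraries, against 47.3, 80.8 and 15.5 CPM in the virgin libraries (adjusted p = 0.0923, and 0.00971 without it). Without 1 virgin library, 2, 3 and 2 of the 20 genes were called, for Virgin replicates 1, 2 and 3. The calls lost in such fits were those of Cyp51 (without Virgin replicates 1, 2 or 3, adjusted p up to 0.0698), Msmo1 (without Virgin replicates 1 or 3, adjusted p up to 0.0823) and Pmvk (without Virgin replicates 1, 2 or 3, adjusted p up to 0.0742). Hmgcs1 and Fdps were called in all 6 fits that leave out 1 library.

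Among 15 tested genes of sterol sensing, uptake and efflux, 2 rose, among them Srebf2, and 1 fell, Abcg1. Srebf2, which encodes SREBP2 itself, had 97.9, 91.9 and 59.2 CPM in lactating libraries, against 9.53, 11.3 and 26.8 CPM in the virgin libraries (log2 fold change 2.38 ± 0.48 (SE), adjusted p = 0.0318). Insig1, which holds SREBP in the endoplasmic reticulum and is itself a target of it, had 124, 141 and 65.1 CPM in lactating libraries, against 19.6, 54.3 and 18.3 CPM in the virgin libraries without overlap, and passed only without Lactating replicate 3 (adjusted p = 0.0633, and 0.0235 without it). The efflux pump gene Abcg1, a target of the sterol-sensing receptor LXR, had 8.32, 20.8 and 18.2 CPM in lactating libraries, against 55.7, 78.4 and 55.4 CPM in the virgin libraries (log2 fold change -2.0 ± 0.43 (SE), adjusted p = 0.0389). Abca1, the partner pump, had 130.3, 221 and 97.1 CPM in lactating libraries, against 530.1, 442 and 199.6 CPM in the virgin libraries, with overlap between the groups (adjusted p = 0.0918). Npc2, which moves cholesterol out of lysosomes, had 733, 812 and 509.96 CPM in lactation, against 494, 464 and 430.2 CPM in virgin mice (adjusted p = 0.216). Calls that 1 library decided included those of Srebf2 (without Lactating replicates 1 or 2 or Virgin replicates 1 or 2, adjusted p up to 0.112) and Abcg1 (without Lactating replicate 1 or Virgin replicates 1, 2 or 3, adjusted p up to 0.114). Without Virgin replicate 3 the log2 fold change of Srebf2 was 2.99.

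Of 15 tested genes of fatty acid synthesis and desaturation 3 rose and 0 fell. The list median was 1.22, with members from -5.99 to 7.74. The summed list took 0.0789, 0.11 and 0.146% of counts in lactating libraries, against 0.0611, 0.0579 and 0.0678% in virgin libraries. Elovl1, an elongase of very long chains, had 167, 169 and 177 CPM in lactating libraries, against 67.3, 75.2 and 98.8 CPM in the virgin libraries (log2 fold change 1.09 ± 0.20 (SE), adjusted p = 0.0185). Elovl5, which elongates polyunsaturated chains, had 453, 817 and 596 CPM in lactating libraries, against 294, 209 and 263 CPM in the virgin libraries (log2 fold change 1.28 ± 0.24 (SE), adjusted p = 0.0208). Fads1, the delta-5 desaturase of the same chains, had 92.9, 72.9 and 114 CPM in lactating libraries, against 29.95, 33.7 and 38.2 CPM in the virgin libraries (log2 fold change 1.46 ± 0.30 (SE), adjusted p = 0.0318). The adjusted p of Fads1 without Lactating replicate 3 was 0.0528, and 2 of the 15 genes were called. The calls of this group were lost in some fits: Elovl1 (without Virgin replicates 1 or 2, adjusted p up to 0.072), Elovl5 (without Virgin replicates 2 or 3, adjusted p up to 0.0831) and Fads1 (without Lactating replicates 1 or 3 or Virgin replicates 1, 2 or 3, adjusted p up to 0.125). Among 16 lipid handling and PPAR target genes 1 fell and 0 rose. This was Angptl4, a secreted inhibitor of lipoprotein lipase, with 0, 1.28 and 0 CPM in lactating libraries, against 11.2, 39.5 and 24.8 CPM in the virgin libraries (adjusted p = 0.0271, and 0.0196 without Lactating replicate 3). Its call was lost without Virgin replicate 2 or 3 (adjusted p up to 0.0678). With Lactating replicate 3 left out, Cd9 and Hilpda rose, and Plin2 fell beside Angptl4. Cd36, a fatty acid transporter and scavenger receptor, had 1949, 2426 and 1790.5 CPM in lactating libraries, against 549, 1027 and 983 CPM in the virgin libraries, without overlap and without passing the test (adjusted p = 0.208).

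**Figure D3:**
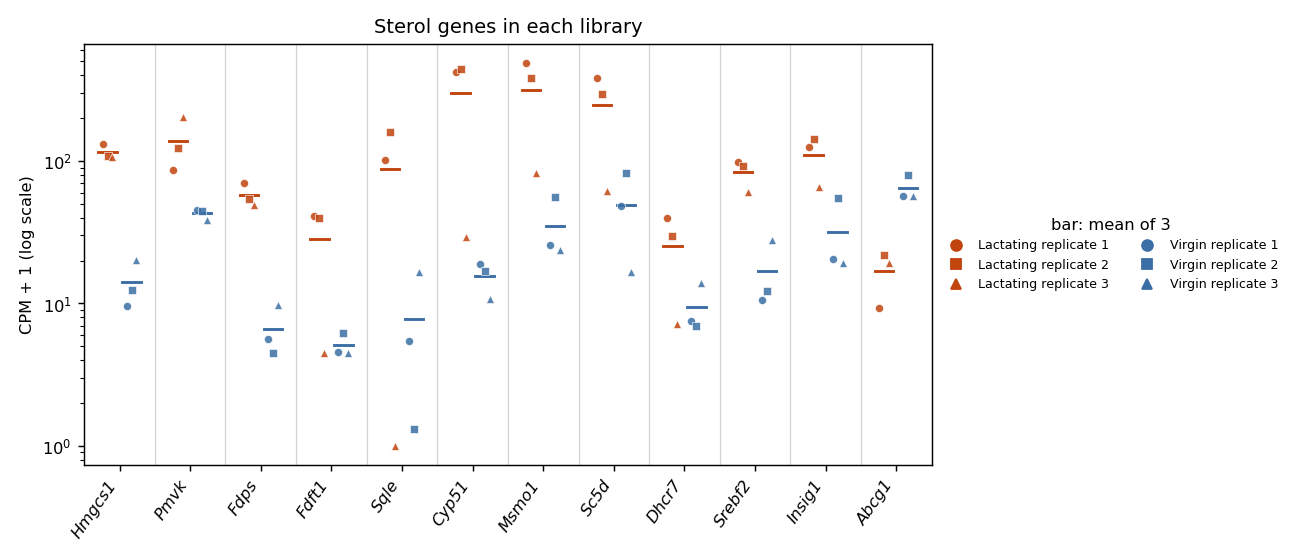
CPM + 1 on a log axis of sterol genes in the lactating libraries (left of each pair) and the virgin libraries (right), with 1 symbol a replicate and a bar at the mean of 3. Hmgcs1 has 105 to 131 CPM in lactating and 8.61 to 19.1 CPM in virgin libraries, while the third lactating library lies below the virgin libraries for Sqle (0 CPM).

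Of 19 tested chemokine ligand genes 4 rose and 0 fell, with a median log2 fold change of 1.61, and 14 of the 19 had a log2 fold change above 0. Leaving out Lactating replicate 3 gave a median of 1.02. Cxcl3, a neutrophil attractant whose promoter is printed above (chr5:90786101-90788093), had 537, 509 and 451 CPM in lactating libraries, against 31.2, 11.6 and 51.9 CPM in the virgin libraries (log2 fold change 3.98 ± 0.47 (SE), adjusted p = 0.0037). The lowest lactating library lay above the highest virgin library by a wide margin. Cxcl1, its neighbour and relative, had 5249.9, 4418 and 1674 CPM in lactating libraries, against 1076, 1051 and 1575 CPM in the virgin libraries (log2 fold change 1.61 ± 0.36 (SE), adjusted p = 0.0458), with Lactating replicate 3 just above the highest virgin value. Cxcl2, the third gene of the family, had 10085, 8975 and 5762 CPM in lactating libraries, against 5122, 4990.1 and 5134 CPM in the virgin libraries without overlap and did not pass (adjusted p = 0.245). Ccl9, a CC chemokine of macrophages and osteoclasts, had 754, 803 and 352 CPM in lactating libraries, against 119, 94.4 and 108 CPM in the virgin libraries (log2 fold change 2.57 ± 0.34 (SE), adjusted p = 0.0041). Ccl22, which binds CCR4 on T cells, had 107, 188 and 38.4 CPM in lactating libraries, against 15.1, 18.8 and 13 CPM in the virgin libraries (log2 fold change 2.83 ± 0.51 (SE), adjusted p = 0.0187). Reads of the closely related Cxcl1, Cxcl2 and Cxcl3 may be shared between them, depending on how the authors' counting treated multiple matches.

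When Lactating replicate 3 was left out, 7 of the 19 ligands rose and 0 fell, beside 1.76% of all genes that rose. The 3 further ones were Ccl3, Ccl4 and Ccl7. Ccl3, a ligand of CCR1, had 8902, 6731 and 1715 CPM in lactating libraries, against 1116, 1849.6 and 2047 CPM in the virgin libraries (adjusted p = 0.0862, and 0.000881 without that library). Ccl4, its neighbour, had 13745, 9338 and 3012 CPM in lactating libraries, against 1373, 2376 and 3189.9 CPM in the virgin libraries (adjusted p = 0.0682, and 0.00264 without it). Ccl7, a monocyte attractant, had 191, 96.7 and 5.62 CPM in lactation, against 1.03, 2.61 and 11.5 CPM in virgin mice (adjusted p = 0.121, and 0.0264 without it). In these genes the first 2 lactating libraries were high and the third lay within the virgin range. Without 1 virgin library 2 of the ligands were called in each fit. The calls lost were those of Cxcl1 (without Lactating replicates 1 or 2 or Virgin replicates 1, 2 or 3, adjusted p up to 0.161) and Ccl22 (without Virgin replicates 1, 2 or 3, adjusted p up to 0.0717), and without Lactating replicate 2 the log2 fold change of Ccl22 was 2.20. Cxcl3 and Ccl9 were called in all 6 such fits.

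Of 16 tested cytokine genes 1 rose, the anti-inflammatory cytokine Il10, and 0 fell. Il10 had 1183, 1238 and 491 CPM in lactating libraries, against 169, 146 and 232 CPM in the virgin libraries (log2 fold change 2.41 ± 0.37 (SE), adjusted p = 0.00828), was called in all 6 fits that leave out 1 library, and the groups did not overlap. With that library left out, 5 of the cytokine genes rose, with Il1rn, Il6, Tnf and Il1b beside Il10. Il1rn, the secreted antagonist of the interleukin-1 receptor, had 2693, 3419 and 247 CPM in lactating libraries, against 532, 362 and 381 CPM in the virgin libraries (adjusted p = 0.105, and 3.7e-05 without that library). Il6 had 202, 221 and 1.05 CPM in lactating libraries, against 7.8, 9.74 and 11.7 CPM in the virgin libraries (adjusted p = 0.131, and 0.000769 without it). The third lactating library was the lowest of all 6 for both genes. Tnf had 1447, 1309 and 361 CPM in lactating libraries, against 335, 496 and 632 CPM in the virgin libraries (adjusted p = 0.235, and 0.0119 without it). Il1b had 9048, 6621 and 2722 CPM in lactating libraries, against 3699, 3116 and 3099 CPM in the virgin libraries (adjusted p = 0.258, and 0.0252 without it). All 5 cytokine genes stood highest in Lactating replicates 1 and 2. Lactating replicate 3 was the library with the highest milk share and the lowest macrophage share, and the part of these in the difference between lactating libraries was not tested.

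Of 23 genes for NF-kB subunits, inhibitors and targets 1 rose and 0 fell, with a median of 0.37, or 0.66 without Lactating replicate 3. This was Nfkb1, which encodes the p105 precursor of the p50 subunit, with 211, 292 and 157 CPM in lactating libraries, against 57.3, 106 and 79.8 CPM in the virgin libraries (log2 fold change 1.44 ± 0.32 (SE), adjusted p = 0.0463). Its call was lost in 5 of the fits that leave out 1 library: Nfkb1 (without Lactating replicates 1 or 2 or Virgin replicates 1, 2 or 3, adjusted p up to 0.169). Cd83, a maturation marker of antigen-presenting cells and an NF-kB target, had 9328, 7404 and 2625 CPM in lactating libraries, against 3107, 3874 and 3685 CPM in the virgin libraries, and rose only without Lactating replicate 3 (adjusted p = 0.271, and 0.00857 without it). Of the 14 genes of interleukin-10 and STAT3 signalling Il10 alone was called, and the feedback inhibitor Socs3 had 418, 454 and 267 CPM in lactation, against 196, 282 and 287 CPM in virgin mice (adjusted p = 0.311). Toll-like receptor genes gave 0 edgeR calls among 22, with 3 higher and 0 lower at an unadjusted p under 0.05 and 2 called by DESeq2. Without Lactating replicate 3 the co-receptor gene Cd14 rose, with 14274, 13045 and 3002 CPM in lactating libraries, against 4056, 4567 and 4269 CPM in the virgin libraries (adjusted p = 0.197, and 0.00152 without it).

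**Figure D4:**
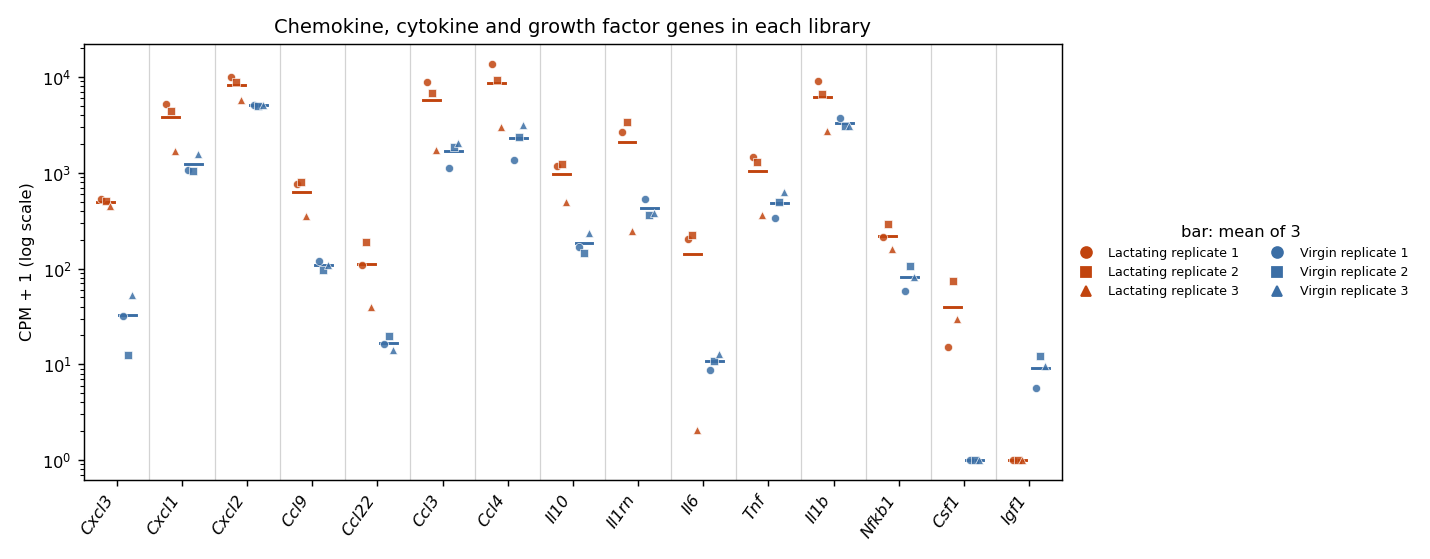
CPM + 1 on a log axis of chemokine, cytokine and growth factor genes in the lactating libraries (left of each pair) and the virgin libraries (right), with 1 symbol a replicate and a bar at the mean of 3. Cxcl3 has 451 to 537 CPM in lactating and 11.6 to 51.9 CPM in virgin libraries, whereas for Il1rn and Il6 the third lactating library (247 and 1.05 CPM) lies below every virgin library.

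Secreted growth factors changed in both directions, with 1 of 12 tested genes higher and 2 lower. Csf1, the growth factor that macrophages depend on (chr3:107741048-107760469), had 14, 73.6 and 28.9 CPM in lactating libraries, against 0, 0 and 0 CPM in the virgin libraries. It was at 0 in all virgin libraries, so in pooled counts it was at least 419-fold higher in lactation against a floor of 3 counts over the virgin libraries (adjusted p = 0.00492). Lactating replicate 2 held 403 of its 813 counts, and without that library the bound was 279-fold. The 3 pregnant libraries had 0.445, 2.41 and 1.66 CPM and the post-weaning libraries 8.15, 3.16 and 6.4 CPM, given here as a description. Igf1, insulin-like growth factor 1 (chr10:87858265-87937047), had 0, 0 and 0 CPM in lactating libraries, against 4.71, 11.3 and 8.55 CPM in the virgin libraries, at least 64.9-fold lower in lactation (adjusted p = 0.0037). Pdgfc, a platelet-derived growth factor, had 0, 0 and 0.527 CPM in lactating libraries, against 9.64, 9.82 and 6.29 CPM in the virgin libraries (adjusted p = 0.0147, and 0.000769 without Lactating replicate 3). Lactating and virgin libraries did not overlap for any of these 3 genes, and each was called in all 6 fits that leave out 1 library. Fibroblast markers took 0.0039, 0.00274 and 0.00261% of counts in lactating libraries, against 0.00406, 0.0426 and 0.0145% in virgin libraries. Of 9 tested fibroblast markers 0 were called by edgeR, with 0 higher and 5 lower at an unadjusted p under 0.05 and 5 called by DESeq2, and their median log2 fold change was -7.43, or -5.47 with genes at 0 in a stage set at their bound. Their part in the falls of Igf1 and Pdgfc was not tested.

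Of 18 tested iron, heme and NRF2 target genes 3 rose and 1 fell, with a median of 0.72. Srxn1, sulfiredoxin, which repairs peroxiredoxins and is a classic NRF2 target, had 624, 622 and 711 CPM in lactating libraries, against 86.4, 181 and 114 CPM in the virgin libraries (log2 fold change 2.36 ± 0.32 (SE), adjusted p = 0.0041). Txnrd1, thioredoxin reductase, had 903, 1047 and 691 CPM in lactating libraries, against 288, 273 and 341 CPM in the virgin libraries (log2 fold change 1.55 ± 0.20 (SE), adjusted p = 0.0041). Slc11a2, the divalent metal transporter that imports iron, had 163, 189 and 245 CPM in lactating libraries, against 35, 51.8 and 75.4 CPM in the virgin libraries (log2 fold change 1.88 ± 0.29 (SE), adjusted p = 0.00828). For these genes Lactating replicate 3 lay close to the other lactating libraries, and they were called in all 6 fits that leave out 1 library. Slc40a1, ferroportin, the cell's iron exporter, had 0.173, 9.32 and 0 CPM in lactating libraries, against 73.2, 142 and 73.5 CPM in the virgin libraries. It fell (adjusted p = 0.0494, and 0.0212 without Lactating replicate 3), and the call was lost for Slc40a1 (without Lactating replicate 1 or Virgin replicates 1, 2 or 3, adjusted p up to 0.115). Fth1, the ferritin heavy chain that stores iron, had 17151, 16908 and 15714 CPM in lactating libraries, against 10226, 10392 and 8878 CPM in the virgin libraries without overlap (adjusted p = 0.0615, and 0.00807 without Lactating replicate 3). Without that library 7 of the 18 genes rose and 1 fell, beside 1.76% and 1.34% of all genes. Among the 7 was Slc7a11, the cystine importer, at 117, 172 and 65 CPM in lactation, against 60.9, 49.3 and 35.4 CPM in virgin mice (adjusted p = 0.026 without that library). Mt1, a metallothionein, had 1851, 2373 and 1507 CPM in lactation, against 1084, 1314 and 1289.8 CPM in virgin mice (adjusted p = 0.148, and 0.0379 without it). Of 24 glycolysis and hypoxia genes 1 rose, Pkm, pyruvate kinase, with 399, 308 and 585 CPM in lactating libraries, against 126, 171 and 203 CPM in the virgin libraries (log2 fold change 1.37 ± 0.26 (SE), adjusted p = 0.0247). That call was lost without Virgin replicate 1 or 2 (adjusted p up to 0.0971).

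Of 33 tested type I interferon response genes 3 rose and 0 fell, beside 1.04% of all genes that rose, with a median of 0.05, and of 20 interferon-gamma response genes 0 were called by edgeR, with 0 higher and 4 lower at an unadjusted p under 0.05 and 3 called by DESeq2. Oasl1, an OAS-like antiviral gene, had 150.4, 265 and 367 CPM in lactating libraries, against 19.2, 13.2 and 22.1 CPM in the virgin libraries (log2 fold change 3.84 ± 0.47 (SE), adjusted p = 0.0041), and was called in every fit that leaves out 1 library. Rsad2, viperin, whose promoter is printed above, had 235, 485 and 189 CPM in lactating libraries, against 58.2, 32.7 and 31.4 CPM in the virgin libraries (log2 fold change 2.89 ± 0.52 (SE), adjusted p = 0.0185). Ifi27l2a had 110.02, 129 and 237 CPM in lactating libraries, against 46.9, 43.7 and 70.2 CPM in the virgin libraries (log2 fold change 1.56 ± 0.35 (SE), adjusted p = 0.0488), with adjusted p = 0.089 without Lactating replicate 3. The calls lost without 1 library were those of Rsad2 (without Virgin replicates 2 or 3, adjusted p up to 0.0711) and Ifi27l2a (without Lactating replicates 2 or 3 or Virgin replicates 1, 2 or 3, adjusted p up to 0.17).

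Immediate early genes, which respond within minutes to growth signals and also to tissue dissociation, gave 3 falls and 1 rise among 33 tested, with a median of -0.31, or -0.18 without Lactating replicate 3. Fos, an AP-1 subunit, had 618, 492 and 541 CPM in lactating libraries, against 1375, 1731 and 1979 CPM in the virgin libraries (log2 fold change -1.62 ± 0.22 (SE), adjusted p = 0.0041). Egr1, a zinc finger factor, had 601, 269 and 659 CPM in lactating libraries, against 977, 1797 and 1797 CPM in the virgin libraries (log2 fold change -1.58 ± 0.34 (SE), adjusted p = 0.0389). Ier5 had 401, 376 and 352 CPM in lactating libraries, against 539.97, 821 and 671 CPM in the virgin libraries (log2 fold change -0.85 ± 0.18 (SE), adjusted p = 0.0382). Lactating libraries lay below virgin libraries without overlap for all 3 of these genes. Dusp5, a nuclear phosphatase of ERK, had 172, 254 and 190.1 CPM in lactating libraries, against 46.4, 40.1 and 66.3 CPM in the virgin libraries and rose (log2 fold change 2.01 ± 0.27 (SE), adjusted p = 0.0041). The calls lost without 1 library were those of Egr1 (without Lactating replicates 1 or 2 or Virgin replicates 2 or 3, adjusted p up to 0.115) and Ier5 (without Lactating replicates 1 or 2 or Virgin replicates 2 or 3, adjusted p up to 0.128). Leaving out Lactating replicate 3 gave 2 rises and 5 falls among the 33, beside 1.76% and 1.34% of all genes. Dusp2 was the further rise, and Ier3 and Jun were the further falls. Jun, the AP-1 partner of Fos, had 111, 58.3 and 306 CPM in lactating libraries, against 219, 425 and 503 CPM in the virgin libraries, and fell only without Lactating replicate 3 (adjusted p = 0.245, and 0.0135 without it). Junb had 2084, 1841 and 963 CPM in lactation, against 1753, 2415 and 2565 CPM in virgin mice (adjusted p = 0.445). Of 12 heat shock chaperone genes 0 were called by edgeR, with 1 higher and 0 lower at an unadjusted p under 0.05 and 0 called by DESeq2. Without Lactating replicate 3, 2 fell, Hspa1a and Hspa1b, inducible HSP70 genes so alike that reads can fall on either. Hspa1a had 22, 15 and 283 CPM in lactating libraries, against 149, 228 and 403 CPM in the virgin libraries (adjusted p = 0.00174 without that library). Hspa1b had 52, 5.12 and 343 CPM in lactation, against 217, 478 and 603 CPM in virgin mice (adjusted p = 0.0291 without it). Lactating replicate 3 lay within the virgin range for both. The time from tissue to sort was not given in the sources used here.

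Genes shared with microglia and other resident macrophages gave 3 falls and 0 rises among 16 tested. The list median was 0.07 (0.01 without Lactating replicate 3), on the other side of 0 from the calls, with 8 of the 16 genes above 0, and 0 were called without Lactating replicate 2 or without Virgin replicate 2. Cx3cr1, the receptor of fractalkine and a hallmark of these cells, had 211, 226 and 181 CPM in lactating libraries, against 374, 383 and 395 CPM in the virgin libraries (log2 fold change -0.90 ± 0.20 (SE), adjusted p = 0.0466). The groups did not overlap, but the call was lost in all 6 fits that leave out 1 library (adjusted p up to 0.119). Gpr34, a lysophosphatidylserine receptor, had 147, 127 and 42.6 CPM in lactating libraries, against 514, 929 and 362 CPM in the virgin libraries (log2 fold change -2.51 ± 0.54 (SE), adjusted p = 0.0382). Fcrls, an Fc receptor-like gene of mouse microglia, had 0, 0 and 0 CPM in lactating libraries, against 4.36, 47.4 and 31.2 CPM in the virgin libraries, at least 229-fold lower in lactation (adjusted p = 0.0318). The calls of the last 2 were lost for Gpr34 (without Lactating replicate 2 or Virgin replicates 1 or 2, adjusted p up to 0.114) and Fcrls (without Lactating replicate 2 or Virgin replicates 2 or 3, adjusted p up to 0.0831). In the fit without Lactating replicate 3, Fcrls and Gpr34 fell and 2 others rose, among them the complement gene C1qa, with 2357, 2424 and 920.5 CPM in lactation, against 1689, 1621 and 1423 CPM in virgin mice (adjusted p = 0.0483 without it). In the TGF-beta pathway 1 of 19 genes fell, the inhibitor Smad6, with 0, 0 and 0 CPM in lactation, against 2.75, 5.31 and 1.97 CPM in virgin mice (adjusted p = 0.0453), a call lost in all 6 fits that leave out 1 library (adjusted p up to 0.0931).

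Of 11 tested genes of stromal and perivascular macrophages 2 rose and 0 fell. Pf4, which encodes the chemokine CXCL4, had 194, 103 and 88.7 CPM in lactating libraries, against 19.9, 23.2 and 15.6 CPM in the virgin libraries (log2 fold change 2.71 ± 0.35 (SE), adjusted p = 0.0041). Colec12, a collectin scavenger receptor, had 2.95, 9.68 and 5 CPM in lactating libraries, against 0, 0 and 0 CPM in the virgin libraries, at least 65.5-fold higher in lactation (adjusted p = 0.0085). The pregnant libraries had 8.34, 12 and 27.1 CPM of Colec12 and the post-weaning libraries 12.9, 9.69 and 16.9 CPM, given as a description. The 11 genes had a median of -1.62, on the other side of 0 from the calls. Mrc1, the mannose receptor CD206, had 21.7, 9.68 and 0 CPM in lactating libraries, against 64.6, 108 and 124 CPM in the virgin libraries without overlap (adjusted p = 0.149, and 0.00885 without Lactating replicate 3). Selenop, which carries selenium, had 2004, 1836 and 454 CPM in lactating libraries, against 5087, 4625 and 3511 CPM in the virgin libraries without overlap (adjusted p = 0.112, and 0.0332 without it). Without that library 2 genes of the list rose and these 2 fell. The summed list took 0.187, 0.165 and 0.0892% of counts in lactating libraries, against 0.537, 0.521 and 0.417% in virgin libraries.

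Uptake receptors gave 1 rise, Colec12, and 1 fall among 21 tested. The fall was Cd300lf, an inhibitory receptor that binds lipids of dying cells, with 28.4, 42.2 and 47 CPM in lactating libraries, against 133, 164 and 184 CPM in the virgin libraries (log2 fold change -2.03 ± 0.27 (SE), adjusted p = 0.0041). Trem2, a lipid-sensing receptor, had 10.05, 14.4 and 9.65 CPM in lactating libraries, against 33.4, 123 and 53.7 CPM in the virgin libraries (adjusted p = 0.052, and 0.0729 without Lactating replicate 3). Mertk, a receptor for apoptotic cells, had 7.8, 0.731 and 0.0878 CPM in lactating libraries, against 32, 93.7 and 30.7 CPM in the virgin libraries (adjusted p = 0.103, and 0.0755 without it). Neither passed the test, although the groups did not overlap. Of 44 lysosomal genes 1 rose and 1 fell, beside 1.04% and 0.900% of all genes, with a median of 0.03. With Lactating replicate 3 left out, 4 rose (Acp5, Cd63, Ctsz and Lgmn) and 1 fell, with a median of 0.35. The shares of all genes were then 1.76% and 1.34%. Acp5, the tartrate-resistant acid phosphatase of osteoclasts and activated macrophages, had 3221, 3483 and 1547 CPM in lactating libraries, against 771, 648 and 792 CPM in the virgin libraries (log2 fold change 1.90 ± 0.27 (SE), adjusted p = 0.00509). Without Lactating replicate 3 its adjusted p was 1.49e-05. Ctsd, the protease cathepsin D, had 237, 265 and 179 CPM in lactating libraries, against 431, 1334 and 875 CPM in the virgin libraries (log2 fold change -1.95 ± 0.38 (SE), adjusted p = 0.0256), a call lost for Ctsd (without Lactating replicate 1 or Virgin replicates 2 or 3, adjusted p up to 0.0796). Of 14 matrix protease genes 0 were called by edgeR, with 5 higher and 0 lower at an unadjusted p under 0.05 and 3 called by DESeq2. Leaving out Lactating replicate 3, 4 of them rose, Mmp12, Mmp13, Mmp14 and Plaur. Mmp12, macrophage elastase, had 10754, 10449 and 2946 CPM in lactating libraries, against 3009, 3282 and 3804 CPM in the virgin libraries (adjusted p = 0.129, and 0.000371 without it). Mmp13, a collagenase, had 3779, 3151 and 739 CPM in lactation, against 795, 526 and 1067 CPM in virgin mice (adjusted p = 0.00404 without it). Plaur, the urokinase receptor, had 4675, 3739.5 and 998 CPM in lactation, against 1526, 1525 and 1596 CPM in virgin mice (adjusted p = 0.00112 without it). Mmp14, a membrane protease, had 385, 509 and 166 CPM in lactation, against 222, 288 and 249 CPM in virgin mice (adjusted p = 0.0378 without it).

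None of 18 MHC class II presentation genes passed edgeR's test with all libraries, with 1 higher and 1 lower at an unadjusted p under 0.05 and 0 called by DESeq2, and 7 of them rose without Lactating replicate 3. Cd74, the invariant chain, had 124620.00, 115468 and 31319 CPM in lactating libraries, against 66151, 63278 and 69116 CPM in the virgin libraries (adjusted p = 0.643, and 0.0125 without it). H2-Ab1, a class II beta chain, had 45741, 43887 and 11572 CPM in lactating libraries, against 23723, 25011 and 25704 CPM in the virgin libraries (adjusted p = 0.642, and 0.00885 without it). H2-Aa had 24665, 24284 and 8771 CPM in lactation, against 15892, 14653 and 12366 CPM in virgin mice (adjusted p = 0.0312 without it). H2-Eb1, another class II beta chain, had 18565, 19044 and 7613 CPM in lactation, against 11285, 11829 and 10732 CPM in virgin mice (adjusted p = 0.00865 without it). The first 2 lactating libraries lay above and the third below every virgin library. The class II list took 17.3, 16.5 and 6.68% of counts in lactating libraries, against 12, 12.2 and 13% in virgin libraries.

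Most general macrophage genes were likewise lowest in Lactating replicate 3. Of the 20 identity genes 0 were called by edgeR, with 4 higher and 1 lower at an unadjusted p under 0.05 and 3 called by DESeq2, and without Lactating replicate 3 Cd14, Cd74 and the lineage factor gene Spi1 rose. Adgre1, which encodes F4/80, had 981, 901 and 263 CPM in lactating libraries, against 820.3, 713 and 698 CPM in the virgin libraries (adjusted p = 0.974). Csf1r, the receptor for CSF-1, had 1649, 1669 and 489 CPM in lactating libraries, against 1033, 1051 and 1070.2 CPM in the virgin libraries (adjusted p = 0.773, and 0.0512 without Lactating replicate 3). Cd68, a lysosomal glycoprotein, had 1537, 1523 and 569.7 CPM in lactation, against 690.2, 1059.8 and 1179.8 CPM in virgin mice (adjusted p = 0.716). Lyz2, lysozyme, had 8971, 6384 and 2101 CPM in lactation, against 5447, 3216 and 3120.3 CPM in virgin mice (adjusted p = 0.553). Ptprc, the pan-leukocyte gene for CD45, had 1436, 1540.1 and 449 CPM in lactation, against 1542, 1359.9 and 1486 CPM in virgin mice (adjusted p = 0.688). Fcgr1, the high-affinity IgG receptor, had 189, 165 and 164 CPM in lactation, against 113, 168 and 148 CPM in virgin mice (adjusted p = 0.552), without the drop in the third library. Itgax, which encodes CD11c, had 374, 499 and 296 CPM in lactating libraries, against 288, 242 and 213 CPM in the virgin libraries without overlap (adjusted p = 0.283). Itgam, which encodes CD11b, had 4.33, 23.8 and 0 CPM in lactation, against 10.7, 17 and 10.3 CPM in virgin mice (adjusted p = 0.933). The proliferation marker Mki67 had 25.6, 29.1 and 35.8 CPM in lactation, against 11, 68.7 and 41.8 CPM in virgin mice (adjusted p = 0.825). Of 44 cell cycle genes 1 rose, the D-type cyclin gene Ccnd2, with 121, 123 and 136 CPM in lactating libraries, against 4.25, 12.4 and 19.8 CPM in the virgin libraries (log2 fold change 3.37 ± 0.55 (SE), adjusted p = 0.0112). Over all genes 1.04% rose. The median of the 44 genes was 0.55 with all libraries and -0.16 without Lactating replicate 3.

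Milk transcripts were present in every lactating library. Of 19 tested genes of milk and the secretory epithelium 7 rose and 0 fell in edgeR, with all libraries and without Lactating replicate 3 alike. With all libraries limma-voom called 0 of them, limma-voom with quality weights 1 and edgeR with a replicate block 3. Csn2, beta-casein, had 286, 243 and 14394 CPM in lactating libraries, against 0, 0 and 0.0731 CPM in the virgin libraries (adjusted p = 0.00851, and 0.000838 without that library). Csn1s1, alpha-casein, had 415, 331 and 8819.98 CPM in lactating libraries, against 0, 0 and 0 CPM in the virgin libraries (adjusted p = 0.0116, and 0.00174 without it). Csn1s2a, another alpha-casein, had 505, 543 and 15704 CPM in lactating libraries, against 0, 0 and 0 CPM in the virgin libraries (adjusted p = 0.0159, and 0.00314 without it). Wap, whey acidic protein, had 399, 307 and 14816 CPM in lactating libraries, against 0, 0 and 0 CPM in the virgin libraries (adjusted p = 0.0369, and 0.00465 without it). Csn1s2b had 460.4, 462 and 5493 CPM in lactation, against 0, 0 and 0 CPM in virgin mice (adjusted p = 0.0271, and 0.00865 without it). Glycam1, a milk mucin, had 10.05, 7.31 and 96.2 CPM in lactation, against 0, 0 and 0 CPM in virgin mice (adjusted p = 0.0381, and 0.0135 without it). The fatty acid carrier gene Fabp3 had 22, 21.9 and 109 CPM in lactation, against 0, 0.475 and 0 CPM in virgin mice (adjusted p = 0.0251, and 0.026 without it). The third lactating library was the highest by a wide margin, and a virgin library held at most 1 count of Csn2. The calls lost without 1 library were those of Csn2 (without Virgin replicate 3, adjusted p up to 0.0579), Csn1s2b (without Virgin replicates 1, 2 or 3, adjusted p up to 0.0715), Wap (without Virgin replicates 1, 2 or 3, adjusted p up to 0.0929), Glycam1 (without Virgin replicates 1, 2 or 3, adjusted p up to 0.0929) and Fabp3 (without Virgin replicates 1 or 3, adjusted p up to 0.0903).

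Keratins of the luminal epithelium went the other way. Of 15 tested luminal markers 2 fell and 0 rose in edgeR. With all libraries limma-voom called 0 of them with or without quality weights, edgeR with a replicate block 1 and DESeq2 7. Krt19 had 0, 0 and 0 CPM in lactating libraries, against 57.7, 35 and 246 CPM in the virgin libraries, at least 928-fold lower in lactation (adjusted p = 0.0041). Virgin replicate 3 held 3363 of the 4308 virgin counts of Krt19, and without it the bound was 334-fold. Krt7 had 0, 0 and 0 CPM in lactation, against 7.46, 20.2 and 78.7 CPM in virgin mice, at least 301-fold lower (adjusted p = 0.0361), or 113-fold without Virgin replicate 3. Krt18 had 19.2, 23.6 and 39.1 CPM in lactation, against 46, 49.5 and 223 CPM in virgin mice (adjusted p = 0.166). Epcam, an adhesion molecule of epithelium, had 69, 107 and 149 CPM in lactation, against 20.9, 9.27 and 86.6 CPM in virgin mice (adjusted p = 0.31). The luminal list took 0.00765, 0.0104 and 0.0351% of counts in lactating libraries, against 0.0183, 0.0134 and 0.102% in virgin libraries, highest in Virgin replicate 3, and 8 of its 15 tested genes were at 0 throughout a stage. The call of Krt7 was lost for Krt7 (without Lactating replicates 1 or 2 or Virgin replicates 1, 2 or 3, adjusted p up to 0.0808). Whether milk and epithelial transcripts came from other cells, free RNA or the macrophages was not tested, and neither was their part in the other results.

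Among the largest rises outside milk genes were those of Csf1, Colec12 and Cyp51, described above, and of Cidea, Slc9a4, Alcam and Klrb1b. Cidea, a lipid droplet protein of fat and milk-secreting cells, had 5.02, 5.3 and 221 CPM in lactation, against 0, 0 and 0.0731 CPM in virgin mice (adjusted p = 0.0251, and 0.0906 without Lactating replicate 3). Slc9a4, a sodium-proton exchanger gene, had 1.56, 12.1 and 70.4 CPM in lactation, against 0, 0 and 0 CPM in virgin mice (adjusted p = 0.0283, and 0.051 without it). Both were highest in the library with the most milk RNA and lost their call without it. Alcam, an adhesion molecule that binds CD6, had 31.9, 46.2 and 78.8 CPM in lactating libraries, against 1.38, 2.69 and 0.0731 CPM in the virgin libraries (log2 fold change 5.24 ± 1.04 (SE), adjusted p = 0.0283). Klrb1b, a lectin-like receptor gene with close relatives in the same cluster, had 171, 252 and 205 CPM in lactating libraries, against 7.34, 0 and 8.41 CPM in the virgin libraries (log2 fold change 5.32 ± 1.08 (SE), adjusted p = 0.0319). Their calls were lost for Cidea (without Lactating replicate 3 or Virgin replicates 1, 2 or 3, adjusted p up to 0.0982), Slc9a4 (without Lactating replicate 3 or Virgin replicates 1, 2 or 3, adjusted p up to 0.0759), Alcam (without Virgin replicate 1, adjusted p up to 0.109) and Klrb1b (without Lactating replicate 2 or Virgin replicates 1 or 3, adjusted p up to 0.0972). Without Virgin replicate 2 the log2 fold changes of Alcam and Klrb1b were 6.22 and 4.73.

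The 15 largest falls were genes at 0 in the lactating libraries, or at 2 counts in 1 of them, and at modest levels in virgin ones. Mettl21a, a protein methyltransferase gene, had 0, 0 and 0 CPM in lactating libraries, against 26.7, 24.5 and 25 CPM in the virgin libraries, at least 191-fold lower (adjusted p = 0.0011). Gng12, a G protein gamma subunit, had 0, 0 and 0 CPM in lactating libraries, against 16.2, 69 and 42 CPM in the virgin libraries, at least 342-fold lower (adjusted p = 0.00492). Sox4, a transcription factor of progenitor cells, had 0, 0 and 0 CPM in lactating libraries, against 7.23, 12 and 33.2 CPM in the virgin libraries, at least 144-fold lower (adjusted p = 0.0041), or 76-fold without Virgin replicate 3, which held 454 of its 669 counts. Fam20c, the kinase that phosphorylates secreted proteins such as casein, had 0, 0 and 0 CPM in lactating libraries, against 7.8, 12.5 and 11.6 CPM in the virgin libraries, at least 83-fold lower (adjusted p = 0.0041). Zfp959, a zinc finger gene, had 0, 0 and 0.176 CPM in lactating libraries, against 150.1, 87.3 and 62.2 CPM in the virgin libraries (adjusted p = 0.00325, and 0.00314 without Lactating replicate 3). In virgin libraries Prorp had 10.1, 12.4 and 15.3 CPM, Kiz 30.5, 36.2 and 19.7 CPM, Ncaph 14.2, 17.7 and 10.5 CPM and Ubxn2b 5.39, 29.5 and 5.77 CPM, and all 4 were at 0 in lactation, at least 97.8, 214, 106 and 107-fold lower in that order. The bound of Ubxn2b was 42.5-fold without Virgin replicate 2. Dsn1 with 7, 12.4 and 7.89 CPM, Lysmd2 with 7.92, 8.72 and 9.87 CPM and Abcd2 with 12.6, 8.87 and 36 CPM in virgin libraries were likewise at 0, and the call of Abcd2 was lost in all 6 fits that leave out 1 library. Krt19, Krt7 and Fcrls complete the 15. Lactating replicates 1 and 2 had the fewest counts of the 6 libraries and Lactating replicate 3 the fewest genes detected, and the part of this in genes at 0 was not tested.

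Some of the genes that passed the test only without Lactating replicate 3 showed the same split of the lactating libraries. Adamdec1, a metalloprotease gene of tissue macrophages, had 489.6, 541 and 60.7 CPM in lactating libraries, against 83, 35.3 and 96.3 CPM in the virgin libraries (adjusted p = 0.0944, and 0.0019 without it). C5ar1, the receptor of complement C5a, had 1720.2, 1476 and 299 CPM in lactating libraries, against 559, 587 and 620.2 CPM in the virgin libraries (adjusted p = 0.298, and 0.00069 without it). Ccr1, a receptor of CCL3, had 1706, 1972 and 398 CPM in lactation, against 519, 381 and 484 CPM in virgin mice (adjusted p = 0.000371 without it). Cyp4f18, a fatty acid hydroxylase, had 993, 1114 and 258 CPM in lactation, against 317, 317 and 355 CPM in virgin mice (adjusted p = 0.000925 without it). In each of these 4 the third lactating library lay within or below the virgin range. Other such genes, described above, showed no such split. Mrc1 and Selenop lay below every virgin library in all lactating libraries. For Insig1 and Fth1, Lactating replicate 3 stayed above every virgin library. Integrins, ribosomal proteins and nuclear oxidative phosphorylation had 0 edgeR calls with and without that library. At an unadjusted p under 0.05, 4 of 15, 2 of 81 and 3 of 75 of their tested genes were higher and 0 lower with all libraries, and DESeq2 called 2, 0 and 1 of them. Endoplasmic reticulum stress genes (20 tested) and Fc receptors and C-type lectins (19 tested) had 0 edgeR calls with all libraries. DESeq2 called 0 and 2 of them. With Lactating replicate 3 left out, 3 genes of each list rose and 0 fell in edgeR, beside 1.76% of all genes that rose.

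**Figure D5:**
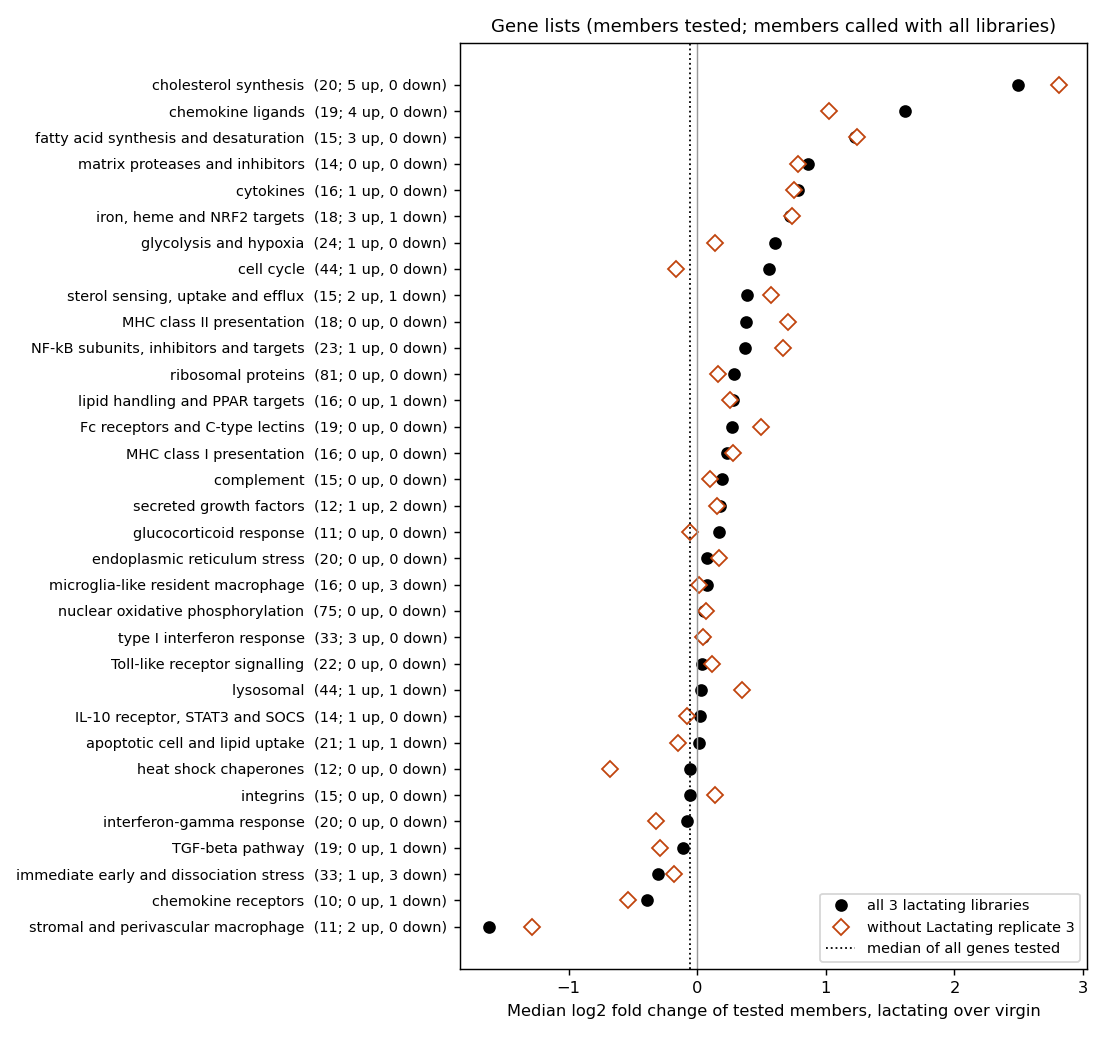
Median log2 fold change of lactating over virgin libraries over the tested members of each list of a gene program (lists of cell type markers are not shown), with all 3 lactating libraries (filled) and without Lactating replicate 3 (open), and the median of all genes tested as a dotted line; brackets give members tested and called. Cholesterol synthesis (2.49) and chemokine ligands (1.61) lie farthest above the line (-0.06) among the lists shown with all 3 lactating libraries. Fatty acid synthesis (1.24) lies above chemokine ligands (1.02) without Lactating replicate 3. Of the 10 tested chemokine receptors (median -0.39), 2 were at 0 throughout a stage.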

How the data were processed

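The values the authors deposited are raw, unnormalized read counts for 27179 genes under Entrez identifiers; per the submitters' processing notes they came from featureCounts with mm10. The aligner, the strand setting and the treatment of multiple matches were not given in the sources used here, so reads of overlapping, antisense or near-identical genes (MHC, Hspa1a and Hspa1b) cannot be told apart. SMART-Seq v4 adds no molecular identifiers, so bounds against 0 cover counting error only. Symbols and positions came from a RefSeq table of GRCm38.p6, which matched 25275 genes (93%); unmatched genes took no more than 0.825% of any library. Totals over all 12 libraries ran from 6926273 to 21204704. No 2 libraries of a stage were identical within sampling noise.

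Genes with few counts were dropped by filterByExpr with the stage as group, libraries were scaled by TMM (factors 0.79, 0.79 and 1.09 in lactating libraries, which raise the CPM of the first 2), and a robust quasi-likelihood model was fitted to all 12 libraries in edgeR 4.0.16 under R 4.3.3, with Benjamini-Hochberg adjustment over all genes tested. The common biological coefficient of variation was 0.856. Adjusted p-values are from this fit where no other tool is named. The simulated data on which the step was tried held no library set apart like Lactating replicate 3. They cannot show how the fit behaves with such a library. A gene at 0 throughout a stage was given a bound in pooled counts against 3 counts over the stage. Alternatives were DESeq2 1.42.0, limma-voom (limma 3.58.1) with and without quality weights, other scalings and filters, a replicate block, the 6 libraries alone and leaving out each library. Same-numbered libraries did not deviate together (correlations 0.035, 0.007 and 0.089), so the numbers were not used as pairs.

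Genes were named as the 15 largest rises and falls among called genes (official symbols only, mean log2 CPM 3 or more, groups not overlapping), called list members, the 10 genes each way with the smallest adjusted p called only without Lactating replicate 3, fixed genes, and up to 2 abundant uncalled members of a list. Not every gene the rule takes is reported. Members named beside counts of 5 or fewer were chosen after their values were seen. The comparison and the gene lists were chosen with earlier results of these data known.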

Additional observations from a re-analysis of the deposited data

How the results depend on the processing

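The 6 compared libraries alone, with 10589 genes tested, gave 0 edgeR calls (0 higher and 0 lower), with 964 genes at an unadjusted p under 0.05. Without Lactating replicate 3 they gave 63 (57 higher, 6 lower), of which 40 were among the 246, an alternative added after seeing the data. RLE size factors gave 240 calls (121 higher, 119 lower), TMM from a table stripped of milk, epithelial, ribosomal and mitochondrial genes 251, all genes unfiltered 212, genes at 5 CPM or more in 3 libraries 270, and limma-voom 248. limma-voom with quality weights gave 246, of them 181 higher and 65 lower. The sets of these last 2 shared 177 and 149 genes with the 246, and 21 and 29 of the 83 called genes named in the text lost their call. DESeq2 gave 1168 (480 higher, 688 lower). After seeing the data, DESeq2 without Lactating replicate 3 was added with 1385 (555 higher, 830 lower), and limma-voom without it with 236 (209 higher, 27 lower). A replicate block, with numbers that do not pair the libraries, left 139 calls (80 higher, 59 lower). Leaving out 1 library gave 111 to 416 calls, 59 to 236 higher and 52 to 180 lower. The cause of these differences was not tested. Of these 83 genes, 77 had an adjusted p in DESeq2, 81 were tested at 5 CPM or more and 83 under each other setting, and 0 of those changed direction.

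Signs that turned were those of genes not called with all libraries. limma-voom gave a log2 fold change of -0.39 for Sqle, and with quality weights 0.22 for Adgre1 and 0.0451 for Mki67, which ran from -0.894 to 0.19 when 1 library was left out. Without Lactating replicate 3 Adgre1 was at 0.29 in edgeR, 0.34 in the 5 libraries alone, 0.31 in DESeq2 and 0.30 in limma-voom, and over edgeR fits that leave out 1 library it ran from -0.39 to 0.29. In the first 3 of these Itgam was at 0.10, 0.15 and 0.11, with -2.57 to 0.10 over the fits that leave out 1 library, and Ptprc was at 0.0224 in the 5 libraries alone. A common biological coefficient of variation of 0.856 limits what 3 libraries a stage can show.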

Other observations

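Several genes with small p-values lie outside the rule for naming genes and were chosen after their values were seen. Zmynd15, a MYND zinc finger gene, had the smallest p of all 12672 genes, with 670.2, 631 and 532 CPM in lactating libraries, against 161, 125 and 124 CPM in the virgin libraries (log2 fold change 2.16 ± 0.19 (SE), adjusted p = 0.00106). Cd207, langerin, the lectin of Langerhans cells, had 2992, 2558 and 1413 CPM in lactating libraries, against 324, 352 and 188 CPM in the virgin libraries (log2 fold change 3.01 ± 0.35 (SE), adjusted p = 0.0037), while the 3 pregnant libraries had 123, 77.5 and 130.03 CPM and the post-weaning libraries 345, 257 and 287 CPM. Bhlhe40, a basic helix-loop-helix repressor gene, had 286, 391 and 283 CPM in lactating libraries, against 73.4, 52.1 and 74.6 CPM in the virgin libraries (log2 fold change 2.26 ± 0.22 (SE), adjusted p = 0.0011). Prdm1, which encodes BLIMP1, had 184, 216 and 299 CPM in lactating libraries, against 62.4, 54.5 and 63.4 CPM in the virgin libraries (log2 fold change 1.95 ± 0.25 (SE), adjusted p = 0.0041). Rilpl2, a regulator of cilia and endosomes, had 353, 373 and 576 CPM in lactation, against 83.3, 104 and 87.8 CPM in virgin mice (adjusted p = 0.00133). The glutamine transporter gene Slc38a1 had 204, 236 and 113 CPM in lactation, against 41.4, 36.4 and 36 CPM in virgin mice (adjusted p = 0.0037).

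Dcstamp and Ocstamp, known for their part in osteoclast fusion, were 2 more genes chosen after their values were seen. Dcstamp had 1501, 1637 and 508 CPM in lactating libraries, against 191, 24.6 and 56.4 CPM in the virgin libraries (log2 fold change 3.75 ± 0.67 (SE), adjusted p = 0.0185). Ocstamp had 608, 869 and 285 CPM in lactating libraries, against 108, 64 and 164 CPM in the virgin libraries (log2 fold change 2.39 ± 0.41 (SE), adjusted p = 0.0157). The calls were lost for Dcstamp (without Virgin replicate 3, adjusted p up to 0.0695) and Ocstamp (without Virgin replicate 1, adjusted p up to 0.0618), and without Virgin replicate 1 the log2 fold change of Dcstamp was 4.89. The nonclassical MHC gene H2-M2 had 6704, 6832 and 1621 CPM in lactating libraries, against 960.5, 985 and 1068 CPM in the virgin libraries (log2 fold change 2.33 ± 0.42 (SE), adjusted p = 0.0187), a call lost for H2-M2 (without Virgin replicates 1, 2 or 3, adjusted p up to 0.0724). Reads of H2 genes can fall on their relatives.

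Among the falls, Hes1, a repressor downstream of Notch, had 11.8, 5.48 and 5.62 CPM in lactating libraries, against 72.8, 87.2 and 71.7 CPM in the virgin libraries (log2 fold change -3.34 ± 0.43 (SE), adjusted p = 0.0041). Dusp6, a phosphatase that damps ERK, had 14.2, 13 and 27.6 CPM in lactating libraries, against 171, 84.1 and 149 CPM in the virgin libraries (log2 fold change -2.87 ± 0.37 (SE), adjusted p = 0.0041), opposite in direction to Dusp5. Hpgd, which breaks down prostaglandins, had 345, 294 and 264 CPM in lactating libraries, against 865, 746 and 680.1 CPM in the virgin libraries (log2 fold change -1.34 ± 0.20 (SE), adjusted p = 0.00598). The ectoenzyme genes Enpp4 and Enpp5 both fell. Enpp4 had 46.4, 25.8 and 26 CPM in lactation, against 183, 124 and 146 CPM in virgin mice (adjusted p = 0.0041). Enpp5 had 3.64, 6.03 and 6.06 CPM in lactation, against 44.6, 43.8 and 38.5 CPM in virgin mice (adjusted p = 0.0041). Gpx3, a secreted glutathione peroxidase, had 0.173, 2.74 and 0 CPM in lactating libraries, against 246, 33 and 88.2 CPM in the virgin libraries (adjusted p = 0.0176, and 0.00988 without Lactating replicate 3), a call lost without Virgin replicate 1 (adjusted p = 0.0537). Igfbp5, which binds IGF1, had 0, 0 and 0.0878 CPM in lactating libraries, against 17.7, 9.27 and 59.6 CPM in the virgin libraries (adjusted p = 0.00492, and 0.017 without Lactating replicate 3). Spp1, osteopontin, which milk-producing cells also make, had 43.3, 53.9 and 0 CPM in lactation, against 0, 0 and 12 CPM in virgin mice (adjusted p = 0.445).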
